A study of Mus musculus with 14 samples.

Results

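Gfap, Aqp4, Slc1a2, Slc1a3, Aldh1l1, Gja1, S100b, Gpr37l1, Fgfr3 and Clu are 10 genes used to mark astrocytes and the radial glia from which astrocytes arise, and they were followed here in the fetal brain of mice that lack an active type 3 deiodinase. They were chosen by their symbols, with earlier results of these data known. All 10 were found among the 41934 genes of the comparison table of each age, and each symbol stood on 1 entry. DIO3 inactivates thyroid hormone, and the question put to the samples was how its loss changes gene expression in the fetal brain. RNA was sequenced from the whole brain of single male fetuses on a C57BL/6J background. At E13.5 the groups held 4 brains for Dio3+/+ and 2 for Dio3-/-, and at E18.5 they held 3 and 5. The fetuses were littermates from matings of Dio3+/- mice. The mutation inactivates the enzyme in every cell and leaves its mRNA to be made, so the level of Dio3 mRNA does not check the genotype labels.

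Radial glia line the ventricles of the embryonic brain. They divide to give neurons first and, late in gestation, glia. A cell that turns into an astrocyte keeps some radial glia genes, such as those for the glutamate transporters and for FGFR3, and switches on others, such as those for the filament protein GFAP and the water channel AQP4. This switch involves the Notch, BMP and JAK/STAT pathways and transcription factors of the NFI and SOX families. Astrocytes and radial glia also take part in thyroid hormone action, since type 2 deiodinase, the product of Dio2, makes T3 in astrocytes.

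At E18.5, Gfap and Gpr37l1 were higher in Dio3-/- than in Dio3+/+ brains, by 1.36-fold and 1.62-fold, and the other 8 genes did not pass the test. These are 2 of 10 genes higher, where 0.96% of all genes tested were. The study had already named both among the genes raised at E18.5, so the share is a description and not a test. It also reported both as raised by qPCR, in the same samples and further ones that included females. At E13.5, Aldh1l1 was 1.35-fold higher and Fgfr3 was 0.783-fold of the Dio3+/+ level, 2 of the 7 genes tested, where 3.56% of all genes tested were called. None of the 10 passed at both ages, and Gfap and Gpr37l1 could not, because their counts at E13.5 were below the filter. No call of the 10 genes held when the statistics were read from a t distribution instead of the normal one. That setting left 0 calls over all genes at E13.5 and 1 at E18.5, so the loss is not particular to these genes. None of the 8 genes that could be compared between the ages had a genotype effect that differed between them after adjustment. In whole brain, fewer cells of a type and less RNA per cell cannot be told apart, and this holds for every difference given here.

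The upstream sequences of the 4 genes that differed between the genotypes are printed here because thyroid hormone receptors, NFI and STAT3 act on glial genes through sites in DNA. They come from RefSeq on GRCm38.p6 and run in the direction of the gene, from 250 bases before its RefSeq start to 10 bases after it. Capitals mark 1 motif for the thyroid hormone receptor half-site, AGGTCA or its complement TGACCT, in Gfap and in Aldh1l1, and 1 match to the STAT motif TTCNNNGAA in Gfap.
Gfap, chr11:102897191-102897450, minus strand: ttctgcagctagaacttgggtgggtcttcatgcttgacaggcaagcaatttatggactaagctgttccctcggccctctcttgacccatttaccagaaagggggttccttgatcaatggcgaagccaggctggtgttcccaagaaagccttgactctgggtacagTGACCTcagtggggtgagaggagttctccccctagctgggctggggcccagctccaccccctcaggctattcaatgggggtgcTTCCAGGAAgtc
Gpr37l1, chr1:135167672-135167931, minus strand: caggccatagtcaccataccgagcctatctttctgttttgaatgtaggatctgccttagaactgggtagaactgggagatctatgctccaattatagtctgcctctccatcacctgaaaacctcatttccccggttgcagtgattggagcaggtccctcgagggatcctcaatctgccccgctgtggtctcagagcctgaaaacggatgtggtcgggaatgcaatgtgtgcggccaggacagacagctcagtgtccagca
Aldh1l1, chr6:90550543-90550802, plus strand: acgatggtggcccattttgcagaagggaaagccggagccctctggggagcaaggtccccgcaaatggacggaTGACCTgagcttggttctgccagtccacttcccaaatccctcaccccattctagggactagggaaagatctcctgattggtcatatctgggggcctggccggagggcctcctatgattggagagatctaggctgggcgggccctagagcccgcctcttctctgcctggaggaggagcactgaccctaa
Fgfr3, chr5:33721474-33721733, plus strand: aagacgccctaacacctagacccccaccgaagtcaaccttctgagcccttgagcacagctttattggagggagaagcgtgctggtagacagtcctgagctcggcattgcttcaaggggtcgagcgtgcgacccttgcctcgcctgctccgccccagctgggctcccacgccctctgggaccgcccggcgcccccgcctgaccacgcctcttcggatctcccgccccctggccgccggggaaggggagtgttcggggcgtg
The Gfap and Aldh1l1 sequences lie inside the annotated genes, because GENCODE also gives a start further upstream for each. Motifs were searched on both strands, in the windows that run from 250 bases before to 50 bases after a start. RefSeq windows were found for 8 of the 10 genes, 9 windows in all, and not for Aqp4 and Clu. AGGTCA was in 3 of the 9 windows, those of Gfap (85 bases before the start), Aldh1l1 (178 bases before) and Slc1a2 (44 bases after), against 16.3% of 32851 promoters. The NFI half-site TTGGCA was in the S100b window, 19 bases before the start, against 14.1% of all promoters. TTCNNNGAA was in the windows of Gfap, from 2 bases before the start, and of Slc1a3, 96 bases before, against 8.30% of promoters. The whole thyroid hormone response element known as DR4, AGGTCA repeated after 4 bases, was in 5 promoters, and the NFI palindrome, TTGGC and GCCAA 5 bases apart, was in 12. None of the 9 windows held either one. The windows differed in base composition. The window of 300 bases that holds the printed Fgfr3 sequence had a GC content of 69.7% and 26 CpG dinucleotides, against 55.7% and 3 for Gfap and 53.7% and 7 for Gpr37l1, where the median promoter had 52.7% and 7.

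The tables hold no value for a single library. For each gene they give a mean normalized count over all libraries of an age, both genotypes together, and a log2 fold change with its standard error (SE), which holds both the variation between fetuses and counting error. The depth of each library is therefore unknown here, and no fetus could be left out. A gene was called higher or lower when its p-value from the authors' DESeq2 Wald test, adjusted here by the Benjamini-Hochberg method over all genes kept by a filter on the mean count, was under 0.05. At E13.5, 585 of 16436 kept genes were called, which is 3.56%, with 1.24% higher and 2.32% lower in Dio3-/-. At E18.5, 242 of 17607 were called, which is 1.37%, with 0.96% higher and 0.415% lower. Of 5 T3-responsive genes, which were listed with the results of the study known, 5 were higher at E18.5 (median log2 fold change 0.85) and 1 at E13.5 (0.21). This one was Klf9, a direct target of the thyroid hormone receptor. Klf9 had log2 fold changes of 0.76 ± 0.19 (SE) at E13.5 and 1.52 ± 0.07 at E18.5. Dio3 mRNA had log2 fold changes of -0.89 ± 0.23 at E13.5 and 1.10 ± 0.15 at E18.5. The study reported the opposite direction at E13.5, a rise of Dio3 mRNA by qPCR in an extended set that included females.

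Per kilobase of exon, the 10 genes spanned from 0.854 to 980 mean normalized counts at E13.5 and from 38.9 to 877 at E18.5. Slc1a2 and Slc1a3, the genes of the glutamate transporters GLT-1 and GLAST, stood at the top at both ages. At E13.5, Slc1a2 had 980 counts per kilobase and Slc1a3 had 450. They were followed by Fgfr3, a receptor for fibroblast growth factors, with 431, Gja1, which encodes the gap junction protein connexin 43, with 332, Aldh1l1, an enzyme of folate metabolism, with 132, and Clu, a secreted chaperone, with 103. The genes of the more mature astrocyte were at the bottom: 14.9 for Aqp4, 13.9 for the calcium-binding protein gene S100b, 1.12 for Gfap and 0.854 for Gpr37l1, a receptor-like membrane protein of glia. At E18.5, Slc1a3 had 877, Slc1a2 774, Clu 512, Gja1 386, Aqp4 339, Aldh1l1 303, Fgfr3 140, Gfap 119, S100b 45.7 and Gpr37l1 38.9. The labelled tissue thus held mRNA of all 10 glial genes at E18.5, while the unscaled mean counts of Gfap and Gpr37l1 at E13.5 were 4.71 and 1.94 per library. These levels carry no spread over fetuses, so whether neighbours in the order, such as Slc1a3 and Fgfr3 at E13.5, differed beyond it could not be tested.

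**Figure D1:**
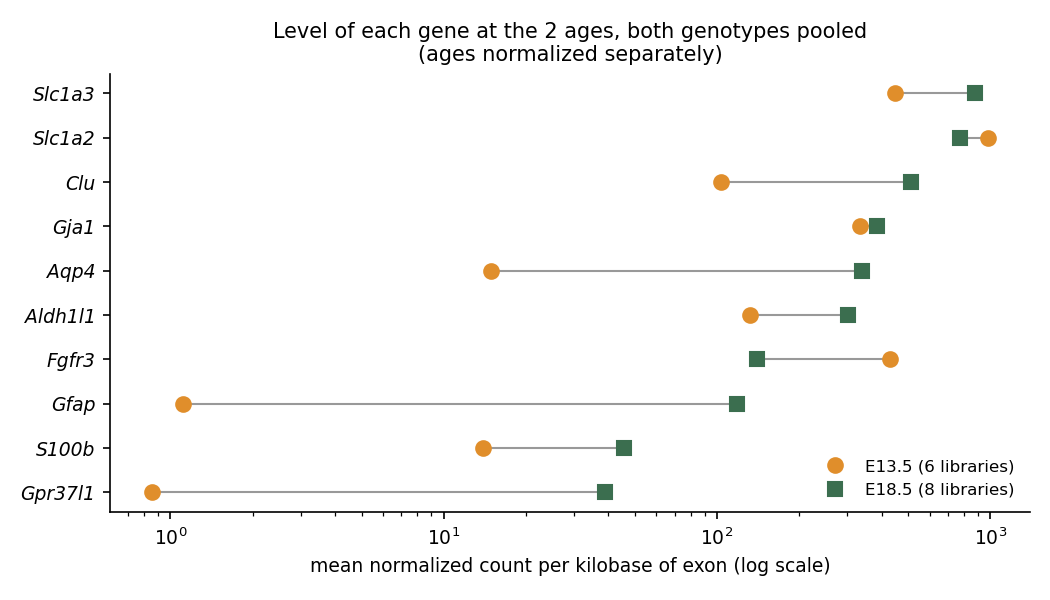
Mean normalized count per kilobase of exon (log axis) of each gene at E13.5 (circles, 6 libraries) and E18.5 (squares, 8 libraries), both genotypes pooled and the ages normalized separately. Gfap moved from 1.12 to 119, Gpr37l1 from 0.854 to 38.9 and Aqp4 from 14.9 to 339, while Fgfr3 moved from 431 to 140.

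Set side by side, the mean counts of the ages differed most for Gfap, which was 106-fold higher in the E18.5 table than in the E13.5 table. The ratio was 45.6 for Gpr37l1, 22.8 for Aqp4, 4.96 for Clu, 3.28 for S100b, 2.29 for Aldh1l1, 1.95 for Slc1a3 and 1.16 for Gja1. Slc1a2 and Fgfr3 were lower at E18.5, with ratios of 0.790 and 0.325. The ages were normalized separately and hold different shares of Dio3-/- libraries, so these ratios are descriptions with no test. Those of Gfap and Gpr37l1 also rest on E13.5 mean counts of 4.71 and 1.94, under the filter's cutoff of 21.7, so their size is uncertain.

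Gfap encodes the intermediate filament protein of astrocytes and lies on GRCm38 at chr11:102887336-102900912 on the minus strand. At E18.5 its mean normalized count was 501, above that of 75.5% of the genes with reads. The log2 fold change was 0.45 ± 0.09 (SE), a fold of 1.36 with a 95% confidence interval of 1.20 to 1.55, and the adjusted p was 0.000558. At E13.5 its mean count of 4.71 lay below the filter's cutoff of 21.7, and the log2 fold change of 0.34 ± 0.96 had an interval from -1.55 to 2.23, which holds the E18.5 value as well as no change and a fall.

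Gpr37l1, at chr1:135160234-135167681 on the minus strand, had the largest log2 fold change of the 10 genes at E18.5. It was 0.70 ± 0.18 (SE), a fold of 1.62 with an interval of 1.27 to 2.07 and an adjusted p of 0.0100. The mean count was 88.3, so its error was about as wide as that of S100b, the only other gene of the 10 with a mean count under 100 at this age. At E13.5 the mean count of 1.94 left a log2 fold change of -0.41 ± 1.51, from which no direction can be read.

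Aqp4, the water channel of astrocyte endfeet on chromosome 18, missed the threshold at E18.5. Its log2 fold change was 0.34 ± 0.12 (SE), with an interval from 0.11 to 0.58, an unadjusted p of 0.00379 and an adjusted p of 0.165. At E13.5 it was 0.21 ± 0.31, with an adjusted p of 0.898. Gfap, Gpr37l1 and Aqp4 thus had the largest log2 fold changes of the 10 at E18.5, and they were also the genes whose mean counts differed most between the ages.

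The genes that were already abundant at E13.5 had narrow intervals around no change at E18.5. For Slc1a2, at chr2:102658659-102790784, the log2 fold change was 0.03 ± 0.04 (SE) with an interval from -0.05 to 0.12. For Slc1a3, at chr15:8634124-8710764, it was 0.04 ± 0.04, from -0.04 to 0.13. A rise of either transporter mRNA as large as the 1.36-fold of Gfap lies outside these intervals. Gja1, at chr10:56377330-56402513, had 0.01 ± 0.05, and Aldh1l1, at chr6:90486427-90600203, had 0.03 ± 0.05. Fgfr3, at chr5:33721674-33737068, had 0.00 ± 0.07, with an interval from -0.13 to 0.14. Clu, at chr14:65968483-65981547, had 0.08 ± 0.06. S100b, at chr10:76253853-76261159, was not abundant at E13.5 (mean count 20.7) and had 0.13 ± 0.19 at E18.5. The adjusted p of these 7 genes ran from 0.892 to 0.999. For S100b the interval from -0.25 to 0.50 does not exclude a change of the size seen in Gfap.

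All 10 genes had a log2 fold change above 0 at E18.5, with a median of 0.06 and a range from 0.00 to 0.70. Over the 18598 genes with a mean count of at least 10 the share above 0 was 50.7% and the median was 0.00. The same libraries gave all 10 values and the genes vary together, so the count is a description.

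**Figure D2:**
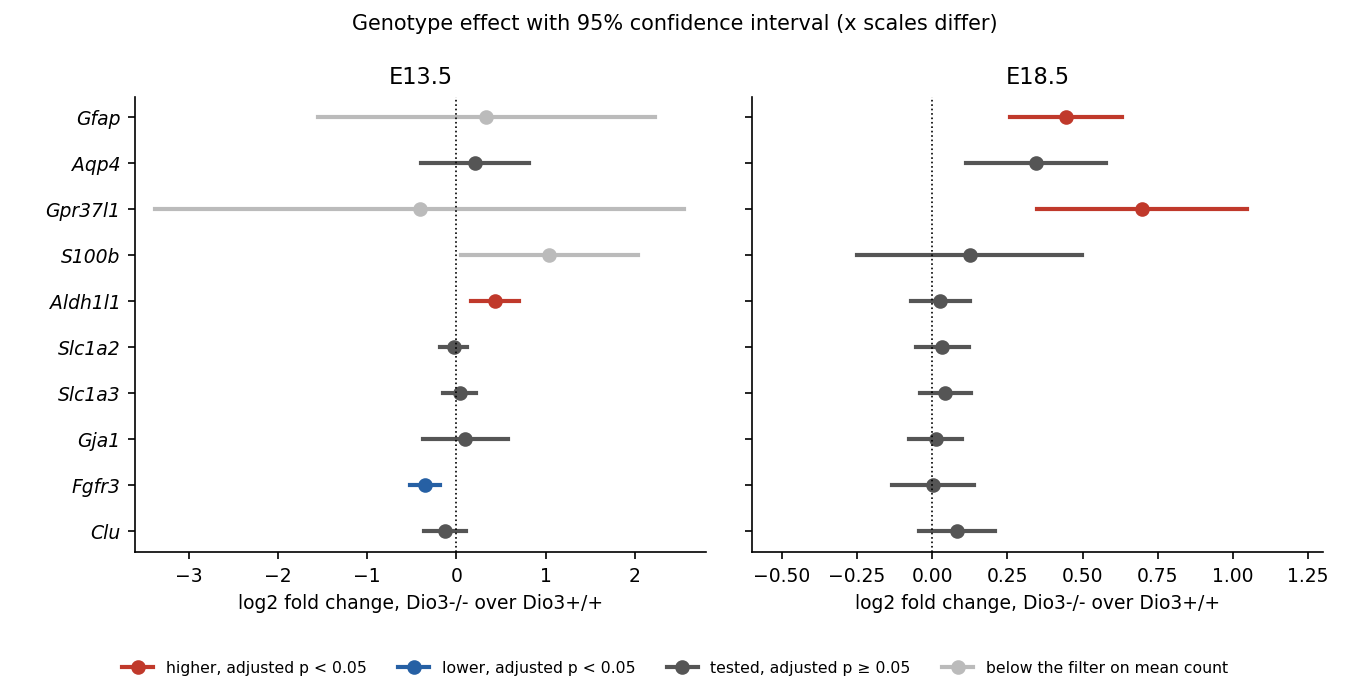
Log2 fold change of Dio3-/- over Dio3+/+ (x axis, scales differ) with its 95% confidence interval for each gene at E13.5 (left, 4 and 2 libraries) and E18.5 (right, 3 and 5 libraries); colour marks genes higher or lower with an adjusted p under 0.05, dark grey genes tested that did not pass and light grey genes below the filter on the mean count. Gpr37l1 (0.70) and Gfap (0.45) stand to the right at E18.5, while at E13.5 Aldh1l1 (0.43) and Fgfr3 (-0.35) differ in direction.

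At E13.5, 7 of the 10 genes passed the filter, and Gfap, Gpr37l1 and S100b did not. Fgfr3, which is expressed in the ventricular zone at this age, reached a mean count of 3082, and its log2 fold change was -0.35 ± 0.09 (SE). This is a fold of 0.783, with an interval of 0.696 to 0.881 and an adjusted p of 0.00325. Aldh1l1, with a mean count of 596, went the other way, at 0.43 ± 0.13, a fold of 1.35 with an interval of 1.12 to 1.62 and an adjusted p of 0.0403. The Aldh1l1 call was lost when no gene was filtered out (adjusted p = 0.0748) and when each statistic was divided by the spread of all statistics (0.140). S100b had the largest value, 1.04 ± 0.51, with an unadjusted p of 0.0397 and a mean count of 20.7, just under the cutoff. The remaining values were -0.03 ± 0.08 for Slc1a2, 0.04 ± 0.10 for Slc1a3, 0.10 ± 0.24 for Gja1 and -0.12 ± 0.12 for Clu, with adjusted p from 0.817 to 0.952. Over the 8 genes with a mean count of at least 10, 5 were above 0 and the median was 0.07, against 48.5% and -0.01 over all genes.

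Reads were counted without regard to strand, with HTSeq at its default union setting, so overlapping genes on either strand could change the count of a gene. The direction and size of this effect were not tested. The exons of Fgfr3 share 998 bases, 13.9% of their length, with G630022F23Rik on the opposite strand, which had 98.3 mean counts and a log2 fold change of -0.21 ± 0.24 at E13.5. Aldh1l1 shares 499 bases with the antisense gene Gm15756, which had a mean count of 0.364 at E13.5, and 105 bases with Gm45901, which was listed at 0. Slc1a2 shares 1.44% of its exon bases with the antisense gene Gm13872. No gene overlapped the exons of Gfap, Aqp4, Gpr37l1 or S100b.

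The difference of the genotype effect between the ages was tested from the 2 fold changes and their errors over 17793 genes with a mean count of at least 10 at both ages, of which 1.95% were called. Gfap and Gpr37l1 were too low at E13.5 to enter. For Fgfr3 the effect at E18.5 minus that at E13.5 was 0.35 ± 0.11 (SE), with an interval from 0.14 to 0.57, an unadjusted p of 0.00137 and an adjusted p of 0.061. For Aldh1l1 the difference was -0.41 ± 0.14, from -0.69 to -0.12, with an unadjusted p of 0.00467 and an adjusted p of 0.138. Neither passed. The other 6 differences had adjusted p from 0.612 to 0.998.

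The wider set of glial genes was read from 3 further lists. Of 30 further astrocyte genes, all passed the filter at E18.5. Kcnj10, the potassium channel Kir4.1, rose by 0.27 ± 0.06 (SE) on the log2 scale (adjusted p = 0.00311), and Dio2, type 2 deiodinase, fell by 0.67 ± 0.10 (adjusted p = 3.47e-09). The study reported a modest fall of Dio2 by qPCR at this age as well. The median over the 30 was 0.07, with 22 above 0. At E13.5, 24 were kept and 2 were lower, none higher: Mlc1, a membrane protein of astrocyte endfeet, at -0.80 ± 0.16, and Mt3, a metallothionein, at -0.66 ± 0.15. In both the effect differed between the ages, with adjusted p of 0.000314 and 0.003, as it did in Mt1 (0.0158).

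The radial glia genes that passed were all lower, at both ages, and most of the list did not pass. At E18.5, 4 of 28 were lower and none higher, where 0.415% of all genes tested were lower. These were Ptprz1, a receptor phosphatase, at -0.24 ± 0.04 (SE), and the matrix protein gene Tnc at -0.23 ± 0.05. The others were the receptor gene Notch1 at -0.18 ± 0.05 and the filament gene Vim at -0.14 ± 0.04. The adjusted p of the 4 ran from 3.11e-06 for Ptprz1 to 0.0389 for Vim. With no filter on the mean count Vim (adjusted p = 0.0708) and Notch1 (0.0508) did not pass, and Vim also missed with the statistics divided by their spread (0.0512). The list median was -0.06 and 7 of the 28 were above 0. Fgfr3, Slc1a2, Slc1a3 and Gja1, which radial glia also express, had log2 fold changes between 0.00 and 0.04 at this age. At E13.5, 8 of 28 were lower and none higher, where 2.32% of all genes tested were lower. Of the 28, 10 had a log2 fold change above 0 at this age. The 6 with the smallest p were Pax6 (-0.74), Sox1 (-0.57), Ddah1 (-0.46), Ptprz1 (-0.41), Nr2e1 (-1.35) and Id4 (-0.31), and their adjusted p ran up to 0.00209. Pax6, Sox1 and Nr2e1 encode transcription factors of neural progenitors, and Id4 an inhibitor of such factors. Fgfr3, at -0.35, went the same way as these genes, with the median of the list at -0.07.

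Of 36 genes of gliogenic signalling and transcription, 34 passed the filter at each age. At E13.5 the NFI genes Nfix (-0.52 ± 0.10, SE), Nfia (-0.33 ± 0.08) and Nfib (-0.38 ± 0.10) were lower, and Id3, a target of BMP signalling, was higher at 0.28 ± 0.09. The Id3 call was lost with no filter (adjusted p = 0.0599) and with the statistics divided by their spread (0.119). At E18.5 Nfia alone passed, at -0.17 ± 0.05 with an adjusted p of 0.0499, and the call was lost under each of the other settings. The list medians were 0.02 and -0.01. The effect on Nfix differed between the ages (adjusted p = 0.000539), and so did that on Egfr, the receptor for epidermal growth factor (adjusted p = 0.0157), in the opposite direction.

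**Figure D3:**
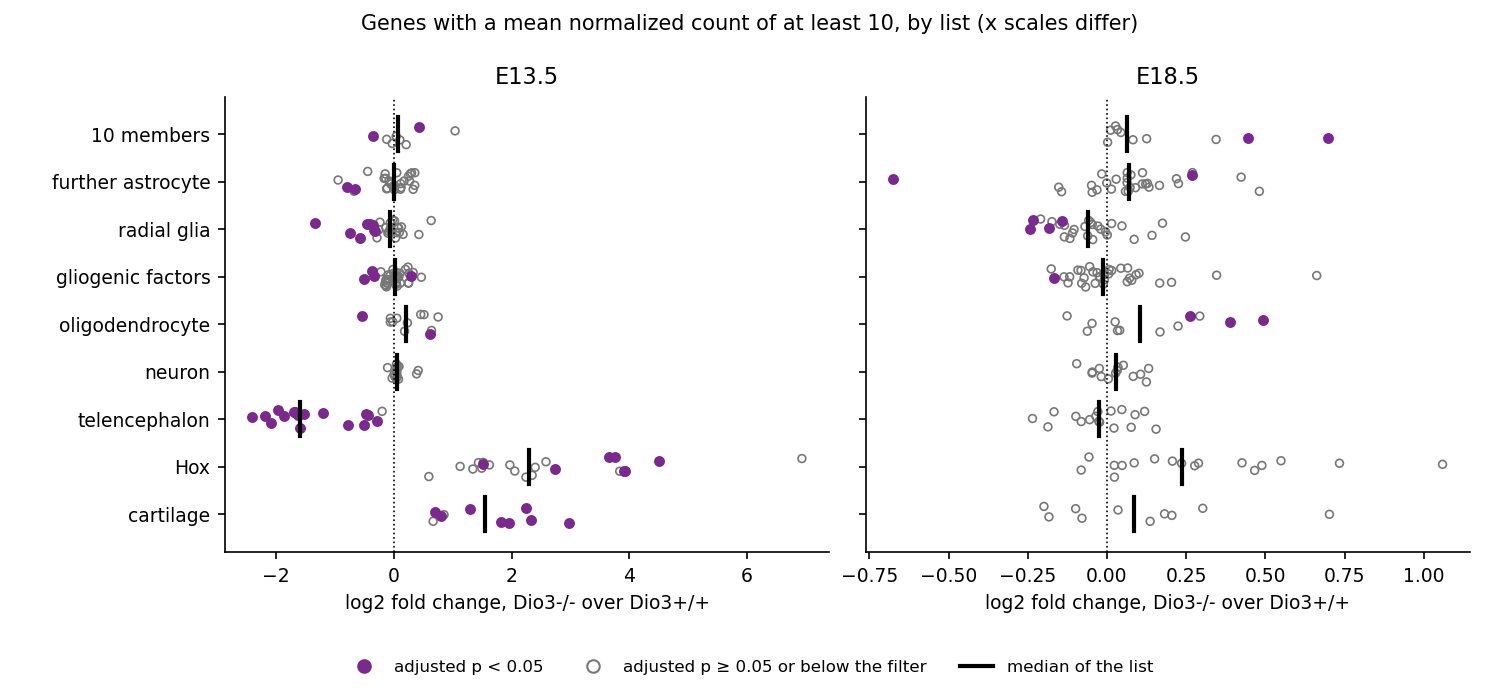
Log2 fold change of Dio3-/- over Dio3+/+ (x axis, scales differ between the panels) of each gene whose mean normalized count was 10 or more, by list, at E13.5 (left) and E18.5 (right); filled points have an adjusted p under 0.05 and the bar is the median of the list. At E13.5 the telencephalon markers lie below 0 (median -1.59) and the Hox genes (2.30) and cartilage markers (1.56) above it, while the medians of the 10 genes and of the astrocyte, radial glia and gliogenic lists lie between -0.07 and 0.07 and 8 radial glia genes are called lower.

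Markers of brain regions and of tissue outside the brain moved with genotype at E13.5. Of 17 telencephalon markers, 16 were lower. The median log2 fold change was -1.59 and, for the 6 with the smallest p, values from -1.52 for Fezf2 to -1.86 for Dlx2. Of 18 kept Hox genes, which the hindbrain and spinal cord express, 7 were higher, and all 22 with a mean count of at least 10 were above 0 (median 2.30). Of 10 kept cartilage markers, 8 were higher (median 1.56), or 3 where no gene was filtered out, with Acan at 2.97 ± 0.64 (SE). The part of this in the E13.5 values of Fgfr3, Aldh1l1 and the radial glia genes was not tested. At E18.5 no gene of these 3 lists was called, and their medians were -0.03, 0.24 and 0.09. The numbers at an unadjusted p under 0.05 were then 3 of 17 for telencephalon, 0 of 14 for Hox genes and 3 of 9 for cartilage. Over all kept genes the number was 1415 of 17607.

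Other cells of the brain were also read at E18.5, where Gfap and Gpr37l1 rose. None of 14 neuron markers was called, with a median log2 fold change of 0.03 and 3 at an unadjusted p under 0.05, of which Ncam1 (-0.10 ± 0.03, SE) and Snap25 (0.13 ± 0.05) had the smallest p. None of 10 microglia markers was called, with a median of 0.16, all 10 above 0 and 2, C1qa (0.25 ± 0.11) and C1qc (0.20 ± 0.10), at an unadjusted p under 0.05. Of the 12 oligodendrocyte lineage markers 3 were higher, of the 10 endothelial markers 3, of the 11 leptomeningeal markers 3 and of the 10 choroid plexus markers 1. Of all genes tested 0.96% were higher, and 1415 of 17607 had an unadjusted p under 0.05. Several of these marker calls were lost under other settings, as given below. Their part in the values of Gfap, Gpr37l1 and Aqp4 was not tested, and their summed levels per group are not analysed here.

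The largest effects at E18.5 fell on the genes whose mean counts differed most between the ages, a pattern looked for after the values had been seen. Over the 10 genes the rank correlation of the 2 quantities was 0.92 (Spearman) and Pearson's r was 0.88. Over the 30 further astrocyte genes Spearman's rho was 0.01, over the 28 radial glia genes 0.06 and over 18595 genes 0.08. Agt, the angiotensinogen gene, had a ratio of 41.1 and a log2 fold change of 0.11 ± 0.12 (SE), and Dio2, with a ratio of 26.1, fell. The pattern of the 10 genes was thus not seen in the other genes of astrocytes. The ratios of Gfap, Gpr37l1 and Agt rest on E13.5 mean counts of 4.71, 1.94 and 5.56, so their size is uncertain. The E18.5 libraries enter both quantities, genes of 1 set of libraries are not replicates, and no p is given.

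**Figure D4:**
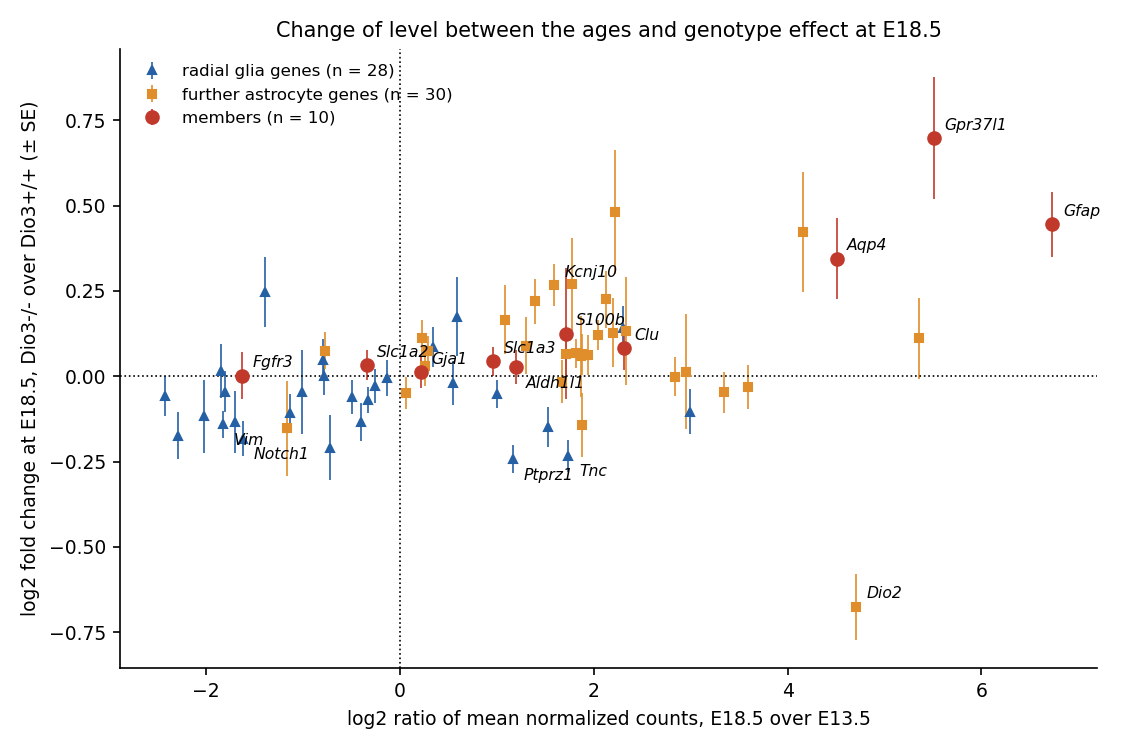
Log2 ratio of the mean normalized counts of E18.5 over E13.5 (x axis, both genotypes pooled) against the log2 fold change of Dio3-/- over Dio3+/+ at E18.5 with its SE (y axis), for the 10 genes (circles), 30 further astrocyte genes (squares) and 28 radial glia genes (triangles), with names for the 10 and for genes with an adjusted p under 0.05. Gfap, Gpr37l1 and Aqp4 lie to the upper right, and Dio2 lies below 0 at a ratio near that of Aqp4.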

How the data were processed

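RNA-seq of 14 whole fetal brains was analysed from 2 tables, 1 for each age, of the authors' comparison of Dio3-/- with Dio3+/+. The authors trimmed reads with cutadapt 3.1, aligned them to GRCm38 with STAR 2.5.3a and GENCODE VM22, removed rRNA and tRNA with bedtools 2.26.0, counted reads with HTSeq without strand, adjusted the counts between 2 sequencing batches with ComBat-seq and fitted DESeq2 1.30.1 in R 4.0.3. The batch of each fetus is not given in the sources used here, the adjustment can change fold changes and their errors, and its effect is not analysed here.

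The mean normalized count deposited for each gene is a signal, the average of all libraries of that age. The deposited fold changes and their SE are on the log2 scale. The Wald statistic deposited by the authors is a score, the fold change over its SE. The deposited p-value is that of the statistic under a normal distribution. Of columns with values of single samples, 0 were left unused.

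With Python 3.11.15, pandas 2.3.3 and scipy 1.17.1, the filter on the mean count was computed again with 50 quantiles as cutoffs, and p-values were adjusted over the kept genes. The tables hold comparisons and no counts, so no count model was fitted here. Intervals are the log2 fold change plus or minus the normal quantile times the SE, at 95% confidence, and hold the spread between fetuses together with counting error. For the ages, the difference of the fold changes was set against the square root of the sum of both squared SE under a normal distribution. The steps were tested on simulated data. Positions, exon lengths and overlaps are from GENCODE M21 on GRCm38, which matched 41897 gene identifiers and missed 37.

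The genes named are the 10 members, Dio3 and Klf9, and of 14 lists at each age up to 6 genes with an adjusted p under 0.05 and the smallest p, or the 2 with the smallest p where none passed. Some genes selected in this way are not reported here. Genes with differing effects between ages, Agt and the overlapping genes were named after their values had been seen. The members, the lists and the tests were chosen with earlier results of these data known. The settings tried were no filter, a mean count of at least 10, the statistic divided by its spread, and a t distribution.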

Additional observations from a re-analysis of the deposited data

How the results depend on the processing

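All settings use the deposited fold changes, so they bear on the calls and not on the directions. Of the 10 genes, 2 were called at each age. At E13.5 this became 1 with no filter (Fgfr3), 1 with the statistic divided by its spread of 1.13 (Fgfr3), 0 with a t distribution on 4 degrees of freedom, and stayed at 2 with a mean count of at least 10. At E18.5 it was 0 with a t distribution on 6 degrees of freedom and 2 under the other 3 settings, where the adjusted p was at most 0.00102 for Gfap and 0.0182 for Gpr37l1. With the t distribution the adjusted p was 0.677 for Gfap (unadjusted 0.00336), 0.893 for Gpr37l1 (0.00775), 0.962 for Fgfr3 at E13.5 (0.0152) and 0.962 for Aldh1l1 (0.0324), and over all genes 0 were called at E13.5 and 1 at E18.5, Klf9. At E13.5, 585 genes were called over all genes and 320 with the statistic divided by its spread. The count of the 10 genes with a differing effect between the ages was 0 under every setting run. Counted once for each gene and age over the called genes of the 10 and of all lists, named or not, 17 calls were lost with no filter, 18 with the spread, 3 with a mean count of at least 10 and 75 with the t distribution. Of the counts of calls in the other lists, those that moved by more than 1.5 times are given, and smaller moves are not. With no filter they moved at E13.5 from 8 to 3 for cartilage markers and from 2 to 1 for oligodendrocyte markers, and at E18.5 from 4 to 2 for radial glia, 3 to 1 for oligodendrocyte, 1 to 0 for gliogenic and 1 to 0 for choroid plexus genes. With the spread they moved at E13.5 to 3 for cartilage, 0 for oligodendrocyte and 1 for leptomeningeal markers, and at E18.5 to 0 for gliogenic and choroid plexus genes, which a mean count of at least 10 also gave. With the t distribution 21 counts moved. No paired analysis was possible because the tables hold no value per library. Leaving out single fetuses was not run for the same reason, so how far a value rests on 1 of the 2 Dio3-/- fetuses at E13.5 is unknown. Low mean counts of 4.71, 1.94 and 20.7 limit Gfap, Gpr37l1 and S100b at E13.5, whose standard errors there were 0.96, 1.51 and 0.51.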

Other observations

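Beside the astrocyte genes, the oligodendrocyte lineage markers held higher genes at E18.5, among them Bcas1, expressed by cells that start to myelinate, at 0.49 ± 0.14 (SE) on the log2 scale, and Gpr17, a receptor of their precursors, at 0.26 ± 0.07. With no filter on the mean count neither passed (adjusted p of 0.0586 and 0.0693), and Gpr17 also missed with the statistic divided by its spread (0.0503). The median of the list was 0.10. At E13.5 Bcas1 was higher, at 0.62 ± 0.18, and Olig2, a transcription factor of the lineage, was lower, at -0.54 ± 0.15, and both calls were lost with the statistic divided by its spread (adjusted p of 0.106 and 0.0728). None of the 12 genes had an effect that differed between the ages.

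Of 10 endothelial markers, 3 were higher at E18.5: Flt1, a VEGF receptor gene, at 0.34 ± 0.07, Ly6c1 at 0.66 ± 0.16 and Slco1a4, an organic anion transporter of the blood-brain barrier that also carries thyroid hormone, at 0.55 ± 0.15. The Slco1a4 call was lost with no filter (adjusted p = 0.0599). None of the 9 kept at E13.5 was called, and 0 had an unadjusted p under 0.05, with Cdh5 (0.15 ± 0.09) and Esam (0.19 ± 0.12) at the smallest p. Of the 11 leptomeningeal and fibroblast markers, Dcn (0.35 ± 0.07), Col3a1 (0.17 ± 0.04) and Ogn (0.24 ± 0.07) were higher at E18.5, and Crabp2 (0.56 ± 0.13) and Dcn (0.50 ± 0.14) at E13.5. The Ogn call was lost with no filter (adjusted p = 0.0708) and with the spread (0.0512), and the E13.5 call of Dcn with the spread (0.068). In the choroid plexus list Kl alone was higher, at 0.49 ± 0.14 at E18.5, with an adjusted p of 0.0477 that rose to between 0.0502 and 0.0866 with no filter, a mean count of at least 10 or the spread, while at E13.5 Kcne2 (-0.93 ± 0.57) and Ttr (-0.94 ± 0.63) had the smallest p, none was called and 0 had an unadjusted p under 0.05. No ependymal marker was called at either age, 1 had an unadjusted p under 0.05 at each, and Foxj1 (-0.36 ± 0.13) and Dnah9 (-0.24 ± 0.09) had the smallest p at E13.5 and E18.5. No neuron or microglia marker was called at E13.5, with 0 and 2 at an unadjusted p under 0.05, and Nefl (0.41 ± 0.26) and Csf1r (0.30 ± 0.12) had the smallest p of their lists.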
